A study of Mus musculus with 12 samples.

Results

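Insulin and insulin-like growth factor (IGF) signalling genes were followed in healing skin wounds of diabetic mice. The set held 10 genes, taken by name: the ligand genes Igf1 and Igf2, the receptor genes Insr and Igf1r, the substrate genes Irs1 and Irs2, and the binding protein genes Igfbp2, Igfbp3, Igfbp4 and Igfbp5. All 10 were found among the 54232 genes listed for each library, and all 10 passed the low-count filter that left 18618 genes for testing.

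The wounds came from male C57BLKS/J mice homozygous for the db mutation of the leptin receptor gene (db/db), 12.5 weeks of age per the sample labels. Every group, the controls included, therefore carried the same model of obesity and type 2 diabetes, in which the leptin receptor defect is present in all cells. Each wound was a full-thickness punch of 6 mm on the back, and tissue was taken on day 10. TD wounds (5 libraries) were covered with a Tegaderm film dressing alone, Strain wounds (4 libraries) were under a patch that stretched the tissue by about 30%, and No Strain wounds (3 libraries) were under a patch without stretch. Unwounded skin and mice without the db mutation were not analysed here. Whether wounds shared a mouse is not given, so p-values measure the spread between these libraries, which may in part be technical.

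Total counts ran from 20354677 to 25059371 per library, and a gene with 3 counts would stand at 0.12 to 0.147 CPM, the unit used here for counts scaled by library total. Markers of skin were present in every library: the basal keratinocyte gene Krt14 stood at 2147 to 6724 CPM and the fibroblast gene Col3a1 at 17692 to 32917 CPM over the 12 libraries. The titles of the TD libraries carry the numbers 1 to 6 and those of the patch libraries 7 to 15, so title number and dressing cannot be told apart. A letter in the titles, L or R and not explained there, was L for 1 of 5 TD, 3 of 4 Strain and 2 of 3 No Strain libraries.

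Insulin, IGF1 and IGF2 signal through a pair of related receptor tyrosine kinases, the insulin receptor and the type 1 IGF receptor. The active receptors phosphorylate the docking proteins IRS1 and IRS2, which recruit phosphoinositide 3-kinase and so activate AKT, a kinase that drives glucose uptake, glycogen synthesis, growth and the exclusion of FOXO transcription factors from the nucleus. Secreted IGF binding proteins hold most extracellular IGF and set how much of it reaches the receptor. In skin, dermal fibroblasts are a main source of IGF1, which acts on keratinocytes and fibroblasts during repair, and insulin resistance is a feature of db/db mice.

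The promoters of 4 members are shown because Irs1, Igfbp2 and Igfbp5 carry most of the differences between groups described here, and Irs2 is the paralogue of Irs1 whose level did not follow it. Each line gives the 250 bases before a RefSeq start (assembly GRCm38.p6), 5′ to 3′ on the gene's own strand. They lie at chr1:82291440-82291689 (minus strand) for Irs1, chr8:11008930-11009179 (minus) for Irs2, chr1:72824230-72824479 (plus, the first of its 2 RefSeq starts) for Igfbp2 and chr1:72874866-72875115 (minus) for Igfbp5. Capitals mark GGGCGG, the core of the GC box bound by SP1-type factors, and TGTTTTG, a core of insulin response elements.
Irs1: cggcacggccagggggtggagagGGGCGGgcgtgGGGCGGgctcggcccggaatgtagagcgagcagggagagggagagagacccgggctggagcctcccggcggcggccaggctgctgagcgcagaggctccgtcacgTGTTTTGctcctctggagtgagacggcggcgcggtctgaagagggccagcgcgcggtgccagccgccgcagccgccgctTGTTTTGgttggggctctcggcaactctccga
Irs2: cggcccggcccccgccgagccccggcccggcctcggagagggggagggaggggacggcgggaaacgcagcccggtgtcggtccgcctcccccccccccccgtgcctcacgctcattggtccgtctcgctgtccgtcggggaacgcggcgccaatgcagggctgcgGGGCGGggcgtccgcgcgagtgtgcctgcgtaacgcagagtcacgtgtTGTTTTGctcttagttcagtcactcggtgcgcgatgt
Igfbp2: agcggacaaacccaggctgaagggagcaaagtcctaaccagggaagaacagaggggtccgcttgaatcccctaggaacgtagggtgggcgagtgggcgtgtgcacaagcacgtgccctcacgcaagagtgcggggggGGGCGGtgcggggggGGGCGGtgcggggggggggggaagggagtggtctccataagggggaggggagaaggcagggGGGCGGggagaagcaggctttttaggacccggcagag
Igfbp5: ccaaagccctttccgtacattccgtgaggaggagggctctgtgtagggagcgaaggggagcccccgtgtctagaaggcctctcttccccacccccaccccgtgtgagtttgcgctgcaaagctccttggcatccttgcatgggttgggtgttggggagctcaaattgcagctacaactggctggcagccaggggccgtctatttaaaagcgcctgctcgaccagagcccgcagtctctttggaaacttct
Irs1 and Irs2 both held TGTTTTG close to the start, with its first base at -32 in Irs1 and -37 in Irs2, and Irs1 held another at -111. These letters, read on both strands, occurred in 5.56% of 32851 promoter windows of the same length. GGGCGG occurred in 32.7% of windows, and in 3 places in the Igfbp2 window, with first bases at -113, -98 and -37. The Igfbp5 window held neither, nor the TATA box letters TATAAA (12.4% of windows), the FOXO letters TGTTTAC (3.17%) or the AP-1 letters TGANTCA (6.75%). Of the 9 members matched in the promoter table, Igfbp4 held TATAAA at -28 and Igf1 (at -37) and the second Igfbp2 start (at -39) held an AP-1 match, and none held TGTTTAC. GC content was 72.4% for Irs1, 72.8% for Irs2, 67.2% for Igfbp2 and 58.8% for Igfbp5, against a median of 52.4% over all windows. A match describes the letters only. Insr was not matched.

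Levels can be compared between genes only per length, so CPM were divided by the kilobases of annotated exon. In TD, Igfbp5 led at 184 ± 38.9 CPM per kb (SD, n = 5). Igfbp4 (77.7), Igfbp3 (73.2) and Igfbp2 (43.4) followed, and the libraries of neighbours in that order overlapped. The ligand gene Igf1 stood below all 4 binding protein genes, at 18.9 ± 1.81 CPM per kb (SD, n = 5). The substrate and receptor genes Irs2 (4.11), Insr (3.99) and Igf1r (3.60) overlapped with each other, and below them came Irs1 at 2.52 and Igf2 at 0.498 CPM per kb, each clear of its neighbour. Under both patches Igfbp2 took a lower place in the order, beside Igf1: it stood at 11.5 beside 15.9 for Igf1 in Strain, and at 15.7 beside 17.1 in No Strain, with overlapping libraries. Irs1 and Igf2, apart in TD and Strain, overlapped in No Strain at 1.19 and 0.513 CPM per kb.

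**Figure D1:**
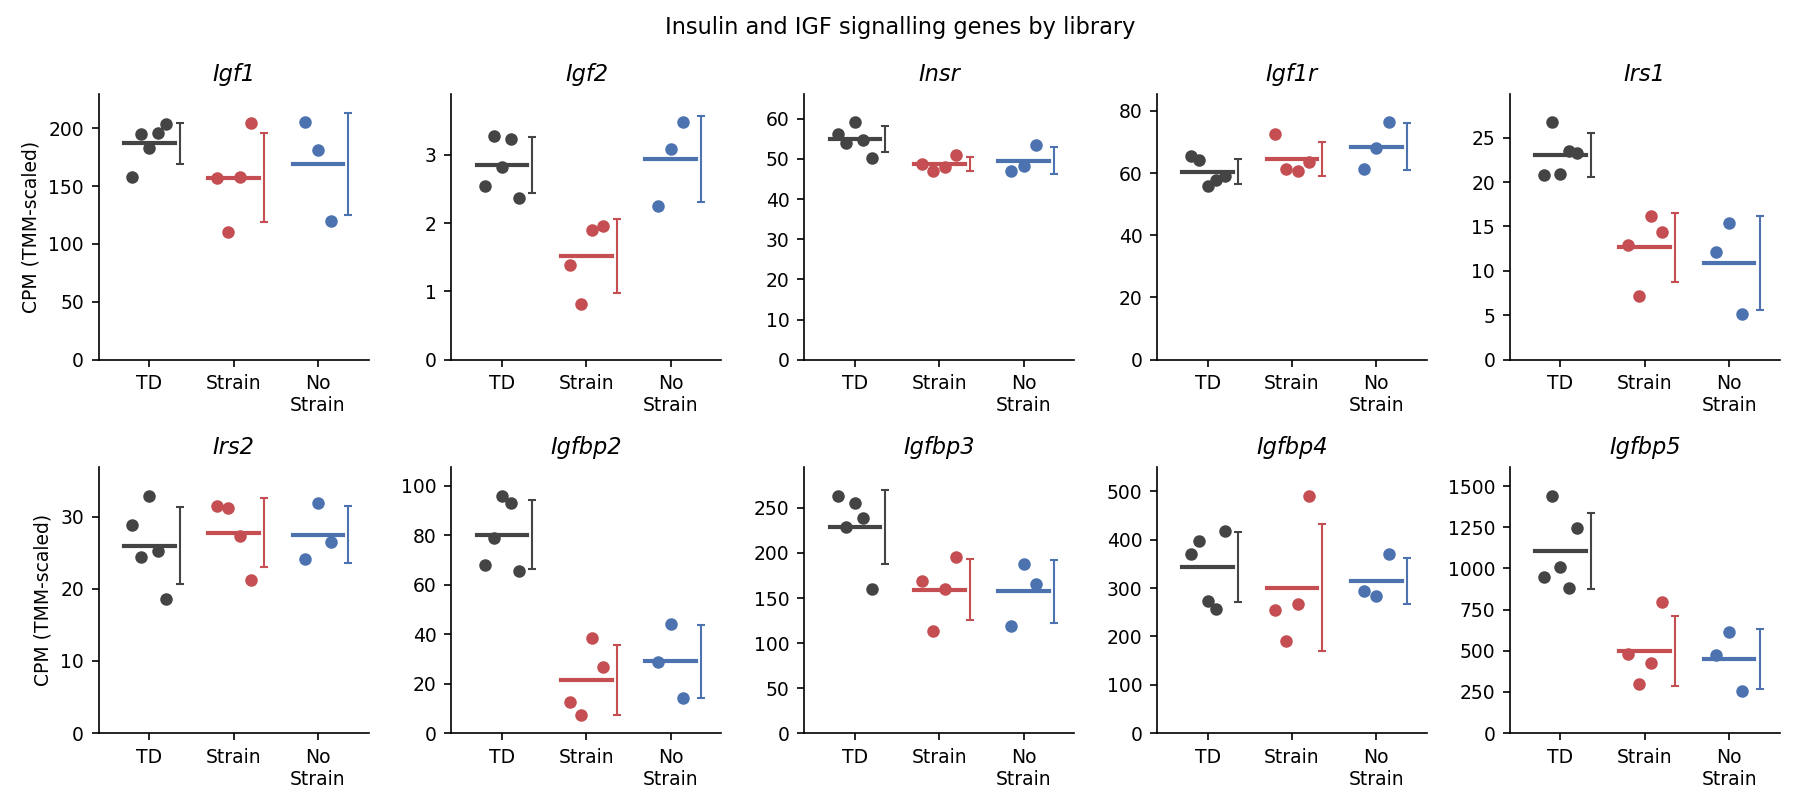
Level of each of the 10 genes in the 12 libraries, in CPM on linear axes from 0, with 1 point per library, a line at the group mean and a bar of 1 SD to each side (TD n = 5, Strain n = 4, No Strain n = 3). Igfbp2, Igfbp5 and Irs1 lie higher in all 5 TD libraries than in any of the 7 patch libraries, while Insr varies only from 46.9 to 59.2.

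Of the ligand genes, Igf1 did not pass the test in any comparison, and Igf2 was lower in Strain than in TD wounds. Igf1 (ENSMUSG00000020053, GRCm38 chromosome 10, 87858265 to 87937042), the main growth factor of the pathway in adult tissue, stood at 187 ± 17.9 CPM in TD (SD, n = 5), 157 ± 38.5 in Strain (SD, n = 4) and 169 ± 44.0 in No Strain (SD, n = 3). Its lowest library was Strain 2 at 110 CPM and its highest No Strain 1 at 205 CPM, so the groups overlapped fully. The 95% intervals of its log2 differences ran from -0.65 to 0.15 for Strain against TD and from -0.58 to 0.29 for No Strain against TD.

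Igf2 (ENSMUSG00000048583, chromosome 7, 142650766 to 142666816) encodes the fetal growth factor, which is expressed at low levels in most adult mouse tissue. TD libraries held 2.55, 3.28, 2.83, 3.23 and 2.37 CPM. Strain libraries held 1.39, 0.81, 1.91 and 1.96 CPM, and No Strain libraries 2.25, 3.09 and 3.48 CPM. Every Strain library lay below every TD and every No Strain library, and the last 2 groups overlapped. These levels rest on 54 to 80 counts per TD library, 18 to 49 per Strain library and 50 to 75 per No Strain library. The log2 difference of Strain from TD was -0.91 (SE 0.245, edgeR quasi-likelihood test, Benjamini-Hochberg adjusted p = 0.0345). No Strain differed from TD by 0.04 (95% interval -0.51 to 0.60). In the direct test, Strain was lower than No Strain by a log2 difference of -0.95 (95% interval -1.55 to -0.35), with an unadjusted p of 0.0048 and an edgeR adjusted p of 0.872, so the difference between the patches did not pass.

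The lower Igf2 level of Strain wounds did not hold in every fit. It passed in 12 of 22 alternative fits and was lost, for example, without Strain 2 (edgeR adjusted p = 0.0748), Strain 1 (0.0763), TD 1 (0.0507), TD 2 (0.0707), TD 3 (0.0647) or TD 4 (0.0751), with a negative log2 difference each time. Skeletal muscle markers were also lowest in Strain: the summed level of the 12 listed was 6484 to 15864 CPM in TD, 2978 to 5737 in Strain and 4325 to 9450 in No Strain. With that list as a covariate the log2 difference of Igf2 was -0.58 (edgeR adjusted p = 0.707). The covariate was the mean log2 CPM of the markers tested, not their sum. Muscle sums do not overlap between TD and Strain, so list and dressing are at best poorly told apart in that fit. With the adipocyte list the difference was -0.82 (edgeR adjusted p = 0.369), with the title letter -0.87 (0.103) and with the macrophage list -0.89 (0.0671). Whether muscle content plays a part was not tested. In the annotation 62.8% of the exon bases of Igf2 are shared with Gm49394 on the same strand, which is listed at 0 counts in all 12 libraries. How reads in shared exons were counted is not given in the sources used here.

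The receptor genes had the narrowest ranges of the set. Insr (ENSMUSG00000005534, chromosome 8, 3122061 to 3279617), the insulin receptor gene, ranged only 1.26-fold over the 12 libraries, from 46.9 CPM in Strain 2 to 59.2 CPM in TD 3. TD libraries averaged 54.9 ± 3.26 CPM (SD, n = 5), Strain 48.6 ± 1.71 (SD, n = 4) and No Strain 49.6 ± 3.36 (SD, n = 3). The log2 difference of Strain from TD was -0.17 (95% interval -0.30 to -0.05, edgeR adjusted p = 0.0742), and that of No Strain was -0.15 (-0.29 to -0.01, edgeR adjusted p = 0.135). Neither passed after adjustment, but without TD 5 the Strain difference was -0.20 (edgeR adjusted p = 0.0485). Igf1r (ENSMUSG00000005533, chromosome 7, 67952827 to 68233668), the IGF1 receptor gene, averaged 60.5 ± 4.12 CPM in TD (SD, n = 5), 64.5 ± 5.42 in Strain (SD, n = 4) and 68.5 ± 7.60 in No Strain (SD, n = 3), with log2 differences from TD of 0.09 (edgeR adjusted p = 0.466) and 0.18 (0.169). The ratio of Insr to Igf1r per kb was 1.03 to 1.29 in the TD libraries and 0.82 to 0.979 in the 7 patch libraries, which did not overlap. This ratio was formed once the values were known and was not tested.

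The 2 substrate genes went different ways. Irs1 (ENSMUSG00000055980, chromosome 1, 82233101 to 82291416) held 20.7, 26.8, 20.9, 23.5 and 23.3 CPM in TD. It held 12.9, 7.19, 16.2 and 14.3 CPM in Strain and 12.1, 15.4 and 5.15 CPM in No Strain. Every patch library was below every TD library, and the patch groups overlapped. The difference from TD passed for No Strain, with a log2 value of -1.08 (SE 0.321, edgeR adjusted p = 0.0395), 2.11-fold lower. For Strain it was -0.86 (SE 0.287, edgeR adjusted p = 0.0714) and did not pass, although it did without No Strain 3 (0.0239). The patches differed by 0.22 (95% interval -0.50 to 0.93), so an effect in 1 comparison only is not shown to differ between the patches.

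The No Strain call for Irs1 passed in 11 of 23 alternative fits. It was lost without No Strain 3 (log2 difference -0.74, edgeR adjusted p = 0.0976), without No Strain 1 (0.0881) and without any single TD library (0.0561 to 0.0736). The annotation places 30.9% of its exon bases opposite Gm9747, which is listed at 0 counts in all libraries. Irs2 (ENSMUSG00000038894, chromosome 8, 10984681 to 11008458), the substrate best known in liver and pancreatic islets, stood at 26.0 ± 5.36 CPM in TD (SD, n = 5), 27.8 ± 4.74 in Strain (SD, n = 4) and 27.5 ± 3.97 in No Strain (SD, n = 3). Its log2 differences from TD were 0.10 (95% interval -0.26 to 0.46) and 0.08 (-0.31 to 0.47), and all groups overlapped. Per kb, Irs2 stood 1.15 to 2.28 times as high as Irs1 in TD libraries, 2.15 to 6.26 times in Strain and 2.88 to 7.44 times in No Strain.

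Among the binding protein genes, Igfbp2 and Igfbp5 were lower in patch wounds and showed the widest ranges of the set, 12.9-fold and 5.66-fold over the 12 libraries. They are neighbours: in GRCm38 Igfbp2 (ENSMUSG00000039323) lies at chromosome 1, 72824503 to 72852474 on the plus strand, and Igfbp5 (ENSMUSG00000026185) at 72857932 to 72874884 on the minus strand, so that they point at each other with 5457 bases between their ends. They share no exon.

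Igfbp2 encodes a binding protein found, among other tissues, in adipose tissue and known to rise with leptin in liver. TD libraries held 68.1, 78.8, 96.0, 92.9 and 65.3 CPM. Strain libraries held 12.6, 7.42, 38.7 and 26.7 CPM, and No Strain libraries 28.9, 43.9 and 14.4 CPM. The highest patch library, No Strain 2, stood below the lowest TD library, and within each patch group the libraries spread widely (coefficients of variation 66.3% and 50.8%, against 17.4% in TD). Strain was 3.75-fold lower than TD, with a log2 difference of -1.91 (SE 0.446, edgeR adjusted p = 0.0218). For No Strain it was -1.46 (SE 0.485, edgeR adjusted p = 0.0580), which did not pass except without Strain 2 (0.0296) or Strain 3 (0.0367) among the fits that left out a library, and the patches differed by -0.44 (95% interval -1.51 to 0.62). The Strain call for Igfbp2 held in 18 of 23 alternative fits, and over all 23 the log2 difference ran from -2.38 to -1.26. It was lost without Strain 1 (edgeR adjusted p = 0.0502).

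Igfbp5 encodes a binding protein that also attaches to extracellular matrix, and it was the most abundant member in CPM. TD libraries held 947, 1443, 1012, 883 and 1248 CPM. Strain libraries held 481, 296, 428 and 796 CPM, and No Strain libraries 475, 616 and 255 CPM. All 7 patch libraries were below all 5 TD libraries. Strain was lower than TD by a log2 difference of -1.15 (SE 0.308, edgeR adjusted p = 0.0343) and No Strain by -1.30 (SE 0.343, edgeR adjusted p = 0.0257), which correspond to 2.21-fold and 2.47-fold. The patches differed by 0.16 (95% interval -0.59 to 0.91). The Strain call for Igfbp5 held in 11 of 23 alternative fits and the No Strain call in 18. The first was lost without any 1 of TD 2 to TD 5 (edgeR adjusted p = 0.0510 to 0.0699) or Strain 1 to Strain 3 (0.0641 to 0.0944), and the second without No Strain 1 (0.0718) or No Strain 3 (0.0901), with the direction kept each time.

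Igfbp3 and Igfbp4 did not pass in either comparison with TD. Igfbp3 (ENSMUSG00000020427, chromosome 11, 7206086 to 7213923), the main carrier of IGF1 in blood, had 264, 228, 255, 239 and 160 CPM in TD. The Strain libraries had 169, 114, 160 and 195 CPM and the No Strain libraries 119, 188 and 166 CPM. The 4 other TD libraries stood above all patch libraries, and TD 5 lay among them. Log2 differences from TD were -0.52 for Strain (edgeR adjusted p = 0.0906) and -0.54 for No Strain (0.0922). Without TD 5 both passed, at -0.63 (edgeR adjusted p = 0.043) and -0.65 (0.0413). Igfbp4 (ENSMUSG00000017493, chromosome 11, 99041244 to 99054392), a binding protein cleaved by the protease pappalysin, averaged 343 ± 73.0 CPM in TD (SD, n = 5), 301 ± 131 in Strain (SD, n = 4) and 315 ± 47.5 in No Strain (SD, n = 3). Its lowest and highest libraries, 191 and 491 CPM, were both Strain wounds, and its log2 differences from TD were -0.19 (95% interval -0.74 to 0.36) and -0.12 (-0.72 to 0.48).

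**Figure D2:**
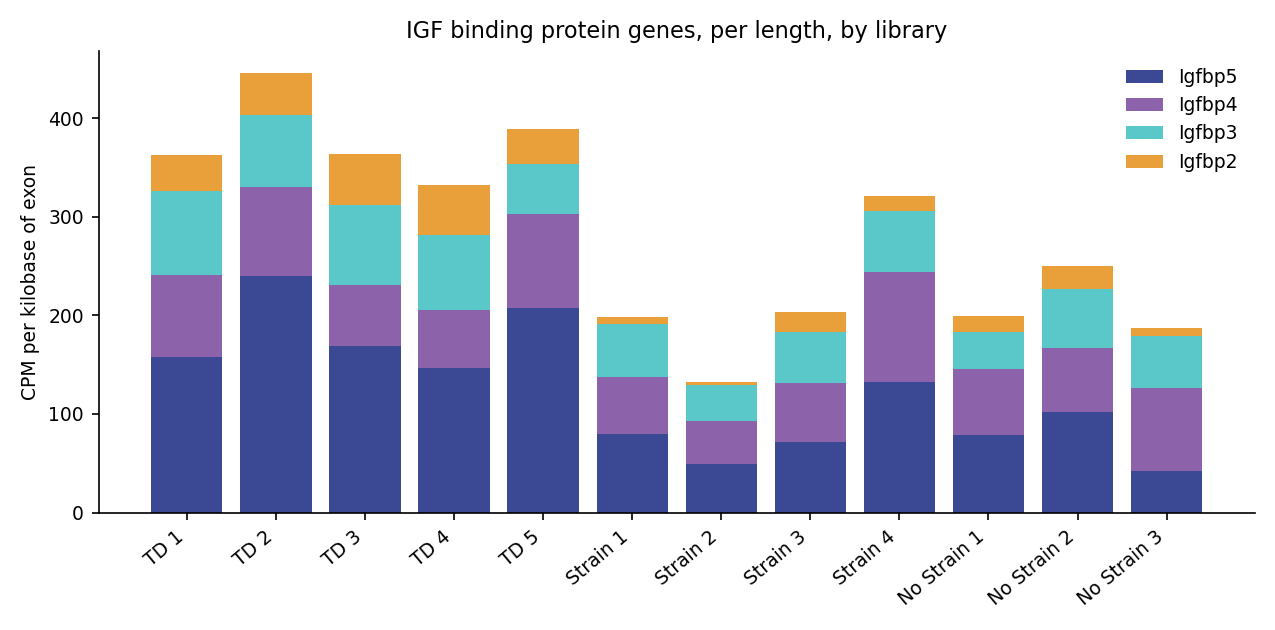
Stacked bars of the 4 binding protein genes in each of the 12 libraries, in CPM per kb of exon, with the axis starting at 0. The height of the bars is 332 to 446 in TD, 133 to 321 in Strain and 187 to 250 in No Strain libraries, and Igfbp5 is the lowest segment of each bar.

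Summed over the 4 genes, binding protein transcripts stood at 379 ± 42.7 CPM per kb in TD (SD, n = 5), 214 ± 78.1 in Strain (SD, n = 4) and 212 ± 33.7 in No Strain (SD, n = 3). The composition differed too. Igfbp5 made up 48.3% of the sum in TD, 38.4% in Strain and 34.5% in No Strain, and Igfbp2 11.7%, 5.31% and 7.18%. The share of Igfbp4 was 20.4%, 31.5% and 34.6%, with the highest TD library at 24.3% and the lowest patch library at 25.6%. Relative to the ligand gene Igf1, the summed binding protein level was 16.8 to 22.8 times as high in TD libraries, 12.0 to 15.5 in Strain and 9.60 to 15.4 in No Strain, so the TD libraries did not overlap with the patch libraries. These sums rest mainly on the genes already described and were not tested. They leave out Igfbp6 and Igfbp7, which are not in the set and whose group means went opposite ways. Igfbp6 averaged 153 ± 39.6 CPM per kb in TD (SD, n = 5), 120 ± 52.6 in Strain (SD, n = 4) and 85.5 ± 19.3 in No Strain (SD, n = 3). Its patch libraries overlapped with TD, and it passed in no comparison. Igfbp7 averaged 272, 381 and 407 CPM per kb. It did not pass for Strain, and its No Strain call was lost in 10 of 12 fits that left out a library. The sum and shares therefore describe the 4 genes only, not all binding protein transcripts.

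Counted over the set, 3 of 10 members passed for Strain against TD, all lower (Igf2, Igfbp2 and Igfbp5), against 12.6% of all genes tested in either direction and 6.41% in the lower direction. For No Strain against TD, 2 of 10 passed, both lower (Irs1 and Igfbp5), against 17.8% in either direction and 8.40% lower. Groups did not overlap, with TD higher, for 4 members in the first comparison (7.14% of all genes) and for 3 in the second (12.5%). Median log2 differences over the 10 members were -0.39 and -0.15, beside 0.02 and 0.00 over all genes tested. With counts this small, 1 gene moves the share by 10 points, and both comparisons share the 5 TD libraries.

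For Strain against No Strain, 0 of 10 members passed the edgeR test, where 0 of 18618 genes did (0%). At an unadjusted p under 0.05 there was 1 member, Igf2, beside 5.61% of all genes, and DESeq2 called 33 genes (0.177%), none of them a member. Igf2 was also the only member whose libraries did not overlap between the patches (2.77% of genes did so with Strain lower). The widest 95% intervals belonged to Igfbp2, Igfbp5 and Irs1, whose differences between the patches were not detectable with 4 and 3 libraries.

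The mean of both patch groups was also set against TD, a comparison added after the data had been seen. It called 5 of 10 members, all lower, beside 24.4% of genes in either direction and 12.1% lower. Igfbp5 had a log2 difference of -1.22 (SE 0.261, edgeR adjusted p = 0.00758), Igfbp2 -1.69 (SE 0.369, 0.00843) and Irs1 -0.97 (SE 0.246, 0.0165). Igfbp3 fell by 0.53 (edgeR adjusted p = 0.0353) and Insr by 0.16 (0.0416). The first 2 calls held in 20 of 22 alternative fits and that of Irs1 in 19, whereas Igfbp3 passed in 12 and Insr in 8. Leaving out a single library ended the Igfbp3 call for TD 1 to TD 4, No Strain 1 or No Strain 3 (edgeR adjusted p = 0.0557 to 0.0824). It ended the Insr call for 9 of the 12 libraries, all but TD 5, Strain 4 and No Strain 3 (0.0505 to 0.103). No overlap with TD was seen for Irs1, Igfbp2 and Igfbp5 (5.26% of genes, lower). Igf2, at -0.43, did not pass (edgeR adjusted p = 0.149).

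**Figure D3:**
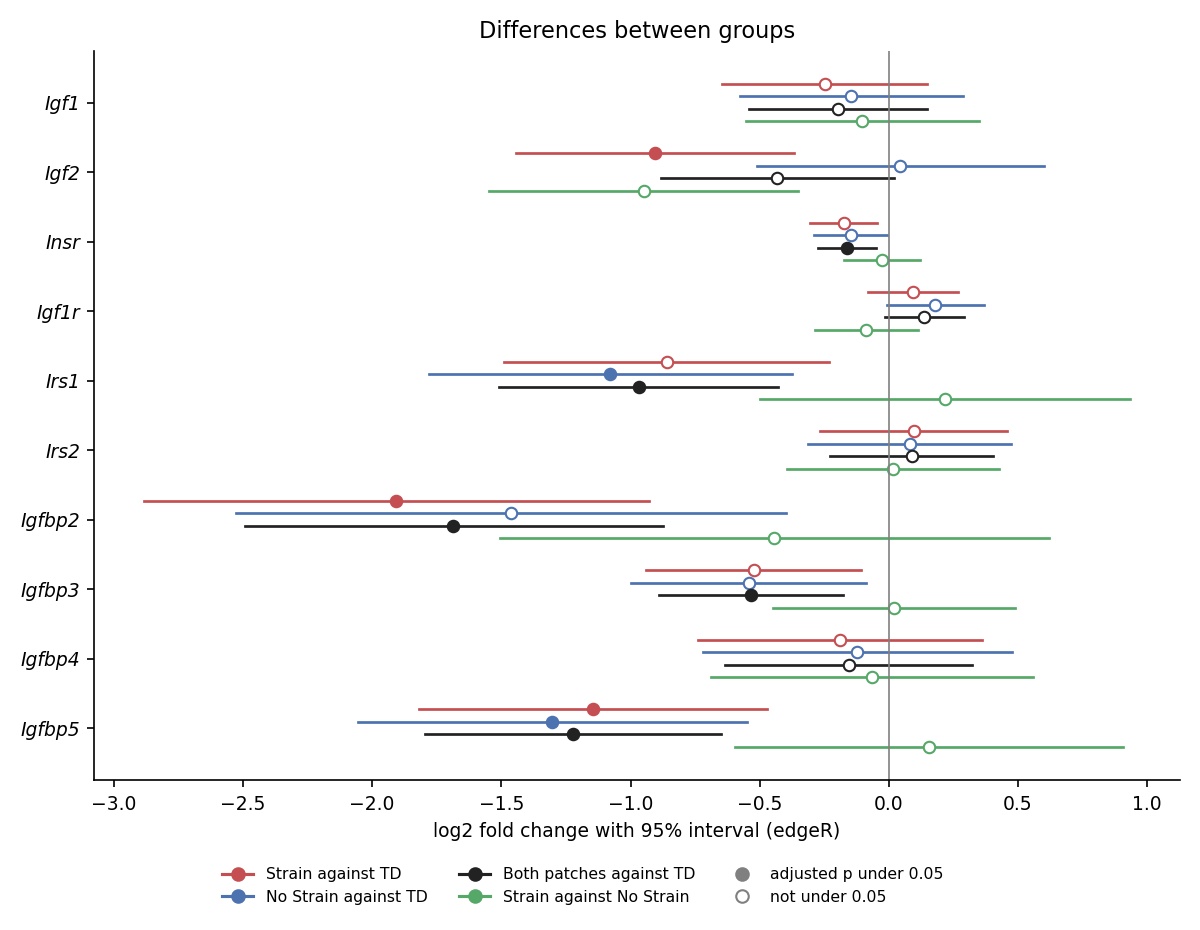
Log2 difference of each of the 10 genes in the 3 pairwise comparisons and for both patches against TD, with 95% intervals, filled points for an edgeR adjusted p under 0.05 and a line at 0. For Igfbp5 the intervals of the patch groups against TD lie below 0, and those of Irs2, Igf1, Igf1r and Igfbp4 cross 0 in every comparison.

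The remainder of the pathway was taken from a list of 65 other genes, of which 61 were tested. The insulin genes Ins1 and Ins2 were not among them: Ins1 had 0 counts throughout and Ins2 1 count in a single library. For Strain against TD 12 of 61 passed (19.7%, against 12.6% of all genes), 3 higher and 9 lower, and for No Strain 15 of 61 (24.6%, against 17.8%), 7 higher and 8 lower. Median log2 differences of the list were -0.02 and 0.00. For Strain against No Strain 0 of 61 passed. The top 2 by rank, neither of which passed, were H19, the maternally expressed neighbour of Igf2, and Socs3, both with an edgeR adjusted p of 0.872.

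The inhibitor genes Socs1, Socs3 and Ptpn1 were higher than TD in both patch groups. Of 13 adaptor and inhibitor genes, 3 were higher and 1 lower for Strain against TD, and 4 were higher and 2 lower for No Strain. Among all genes tested, 12.6% and 17.8% passed in either direction. Socs1, whose product blocks cytokine signalling and binds insulin receptor substrates, averaged 7.43 CPM in TD, 15.1 in Strain (log2 difference 1.02, SE 0.213, edgeR adjusted p = 0.0143) and 21.5 in No Strain (1.53, SE 0.226, 0.00276). Socs3, a related inhibitor induced by cytokines, averaged 69.0, 123 and 195 CPM, with log2 differences of 0.84 (edgeR adjusted p = 0.0445) and 1.5 (0.00485). The Strain call for Socs3 held in 8 of 23 alternative fits. Ptpn1, the phosphatase PTP1B that dephosphorylates the insulin and leptin receptors, averaged 113, 150 and 180 CPM, with log2 differences of 0.41 (edgeR adjusted p = 0.0275) and 0.67 (0.00399). The adaptor gene Sh2b2 passed for No Strain at 1.01 (edgeR adjusted p = 0.0119) and did not for Strain at 0.65 (0.0595).

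Irs3 and Grb14 went the other way. Irs3, a rodent substrate gene known from fat cells, averaged 4.36 CPM in TD, 2.14 in Strain and 1.32 in No Strain, with log2 differences of -1.02 (edgeR adjusted p = 0.0284) and -1.72 (0.00511). Grb14, an adaptor that inhibits the insulin receptor, stood at 10.7, 6.86 and 4.97 CPM and passed for No Strain (-1.11, edgeR adjusted p = 0.0126) but not for Strain (-0.64, 0.0742).

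Most of the downstream genes that passed were lower. Of 20 target and growth control genes, 0 were higher and 7 lower for Strain against TD, and 1 was higher and 6 lower for No Strain. Over all genes tested, 12.6% and 17.8% passed in either direction, and 6.41% and 8.40% were lower. Slc2a4, the insulin-regulated glucose transporter GLUT4 of muscle and fat, averaged 32.3 CPM in TD, 12.3 in Strain and 15.1 in No Strain, with log2 differences of -1.39 (SE 0.285, edgeR adjusted p = 0.0138) and -1.09 (SE 0.311, 0.0340). Gys1, muscle-type glycogen synthase, averaged 76.1, 39.9 and 44.7 CPM, with log2 differences of -0.93 (edgeR adjusted p = 0.00978) and -0.77 (0.0188). Tbc1d4, the AKT substrate AS160 that restrains GLUT4 vesicles, differed by -0.42 (edgeR adjusted p = 0.0166) and -0.63 (0.00376). The transcription factor genes Foxo1 (-0.37 and -0.43) and Foxo4 (-0.50 and -0.48) were lower in both comparisons. So was Tsc2, whose product restrains the growth kinase mTORC1 (-0.22 and -0.26). Eif4ebp1, the translation repressor that mTORC1 inactivates, averaged 56.8 CPM in TD, 67.5 in Strain and 69.7 in No Strain. It rose by 0.30 for No Strain (edgeR adjusted p = 0.0347) and did not pass for Strain.

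Of the 14 genes from phosphoinositide 3-kinase to AKT, 1 passed for Strain against TD: Akt2, the AKT form most tied to insulin action, at -0.24 (edgeR adjusted p = 0.0160), and 0 passed for No Strain, where Akt2 stood at -0.12 (0.143). Of the 8 other binding protein and protease genes, 0 and 1 passed. Both lists had smaller called shares than all genes tested, of which 12.6% and 17.8% passed in either direction. The binding protein gene that passed was Igfbp7, an IGF binding protein relative abundant in vessels, at 329 CPM in TD, 461 in Strain and 492 in No Strain. It passed for No Strain (0.58, edgeR adjusted p = 0.0453) and not for Strain. Yet its Strain libraries (415 to 536 CPM) all lay above TD (260 to 371), whereas No Strain (360 to 666) overlapped TD. H19 rose for No Strain (618 to 1139 CPM, 0.88, edgeR adjusted p = 0.0311) but not for Strain (0.21, 0.577). Short exon stretches of Tsc2 (7.2% of its bases, with Pkd1), Gys1 (6.47%, with Ruvbl2), Foxo1 (7.78%, with Gm20402) and Igfbp7 (7.03%, with Polr2b) are shared with genes on the opposite strand, and the library kit does not mark strand.

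Some pathway calls also rested on single libraries. Without any 1 of several libraries the Strain call was lost for Socs3 (9 of 12 fits, edgeR adjusted p up to 0.153), Ptpn1 (5, up to 0.0974), Irs3 (5, up to 0.0816) and Tsc2 (4, up to 0.0738), and for Foxo1 without Strain 2 (0.0628). The No Strain call was lost for Igfbp7 (10 of 12 fits, up to 0.239), Eif4ebp1 (6, up to 0.137), H19 (6, up to 0.0922) and Slc2a4 (5, up to 0.118). Without No Strain 3 or No Strain 1 it was lost for Gys1 (0.0602 and 0.0646) and Tsc2 (0.0509 and 0.0634). It was lost for Foxo1 (0.0683), Grb14 (0.0568) and Sh2b2 (0.0589) without No Strain 3, and for Foxo4 (0.0574) without No Strain 1. The Strain calls of Socs1, Slc2a4, Gys1, Tbc1d4, Foxo4 and Akt2 and the No Strain calls of Socs1, Socs3, Ptpn1, Irs3 and Tbc1d4 held in all 12 such fits. With covariates the counts were lower: for Strain, 0 of 61 genes passed with the muscle list, 0 with the adipocyte list and 4, all lower, with the title letter. For No Strain, 0 passed with the adipocyte list and 5 with the muscle list (4 higher and 1 lower). With the letter, 6 were higher and 7 lower for No Strain, against 7 and 8 without it. With the macrophage list, 2 were higher and 8 lower for Strain, against 3 and 9 without it, and 6 and 7 for No Strain.

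**Figure D4:**
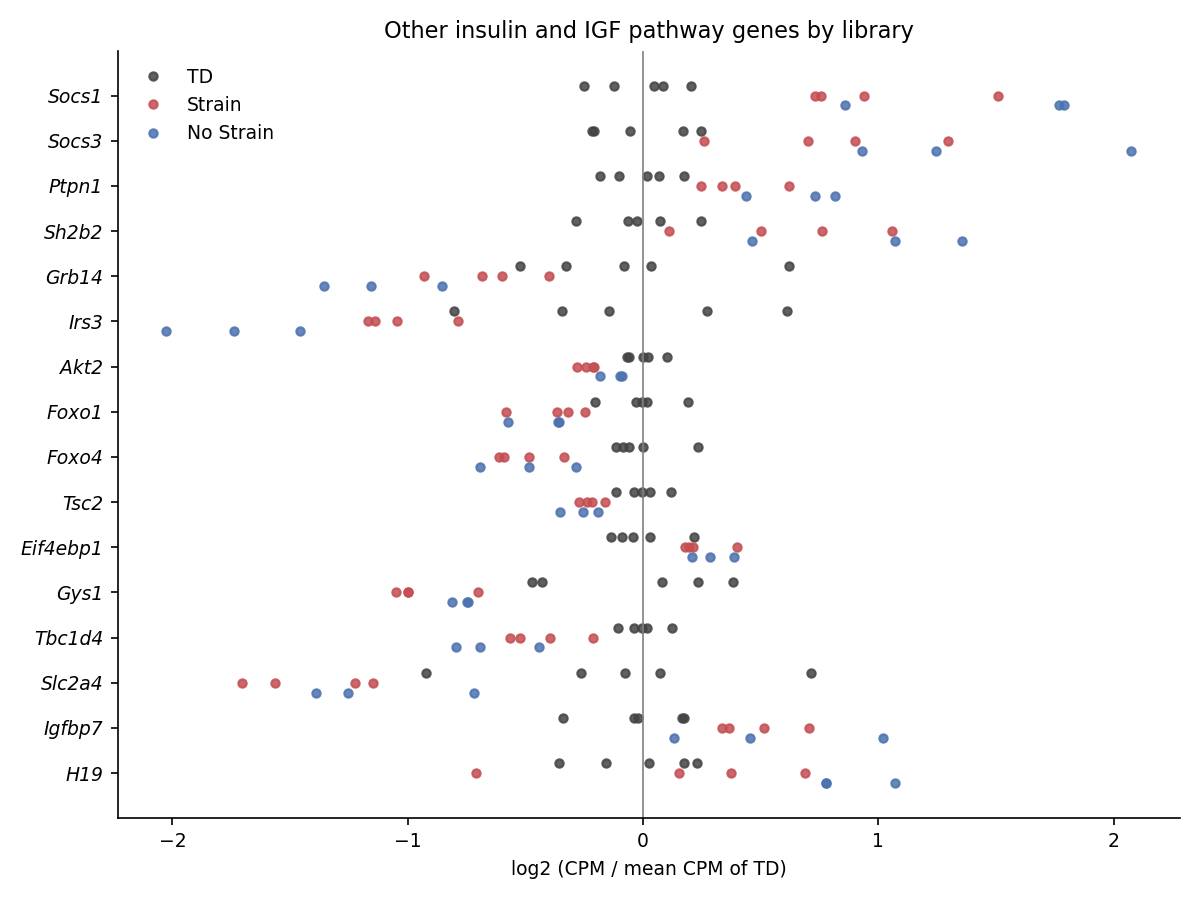
Level of the named pathway genes in each of the 12 libraries, as log2 of CPM over the mean CPM of TD, with 1 point per library and a line at 0. Socs1 and Ptpn1 lie above all TD libraries in every patch library and Gys1 below them, while a TD library lies within the patch range for Slc2a4.

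Other cell types moved with these values. In bulk tissue, fewer cells of a type and less RNA per cell cannot be told apart. The summed level of the 12 adipocyte markers was 1894 to 4538 CPM in TD, 1090 to 1622 in Strain and 1021 to 1144 in No Strain. All TD sums lay above all patch sums, the patch groups overlapped, and 8 and 11 of 12 markers were lower than in TD. Beside these and the marker counts below, 12.6% and 17.8% of all genes tested passed in either direction. Those lower than TD were 6.41% and 8.40% of all genes. Of the skeletal muscle markers tested, 7 of 11 were lower for Strain and 3 of 11 for No Strain. The 8 neutrophil markers summed to 369 to 1571 CPM in TD, 737 to 8502 in Strain and 1810 to 5024 in No Strain, with 6 and 5 of 8 higher. These sums rest mainly on S100a8 and S100a9, at 3631 and 4756 CPM in Strain 1, the library with the highest sum. Other markers ordered the libraries differently: Csf3r stood at 63.9 CPM in Strain 1 and was highest in No Strain 3, at 223 CPM. Tnnc2 of the muscle list was at 0 in a Strain library, Ly6g of the neutrophil list was at 0 in a TD library, and no adipocyte marker was at 0 in any library. No difference was detected for the fibroblast list: 0 of 9 passed in either comparison, with median log2 differences of -0.01 for Strain and 0.20 for No Strain. Its sums overlapped, at 42741 to 67061 CPM in TD, 43636 to 74386 in Strain and 54970 to 69052 in No Strain. Macrophage sums were 1219 to 2830, 2069 to 2837 and 1997 to 3085 CPM, with 1 of 10 higher in each comparison. Endothelial sums were 450 to 559, 543 to 786 and 620 to 710 CPM (4 of 8 higher in each), and T cell sums 17.5 to 25.3, 26.8 to 71.8 and 32.1 to 55.8 CPM (3 of 6 higher in each). Keratinocyte sums overlapped, at 8449 to 11759, 9476 to 15856 and 5839 to 16356 CPM. In each comparison 2 of 8 keratinocyte markers were lower and 0 higher, with median log2 differences of 0.14 for Strain and -0.09 for No Strain.

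With the adipocyte list as a covariate, Igfbp5 differed from TD by -1.38 for Strain (edgeR adjusted p = 0.247) and -1.66 for No Strain (0.373), Igfbp2 by -1.26 (0.372) and -0.42 (0.876), and Irs1 by -0.65 (0.517) and -0.73 (0.686). With the muscle list they were -1.87 (edgeR adjusted p = 0.395) and -1.73 (0.049) for Igfbp5, -1.54 (0.568) and -1.20 (0.306) for Igfbp2, and -1.24 (0.512) and -1.32 (0.100) for Irs1. Adipocyte sums do not overlap between TD and the patches, nor muscle sums between TD and Strain. The covariate was the mean log2 CPM of a list, not its sum, and list and dressing are at best poorly told apart in those comparisons. With the macrophage list as a covariate, Igfbp5 differed by -1.12 (edgeR adjusted p = 0.0631) and -1.27 (0.0495).

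**Figure D5:**
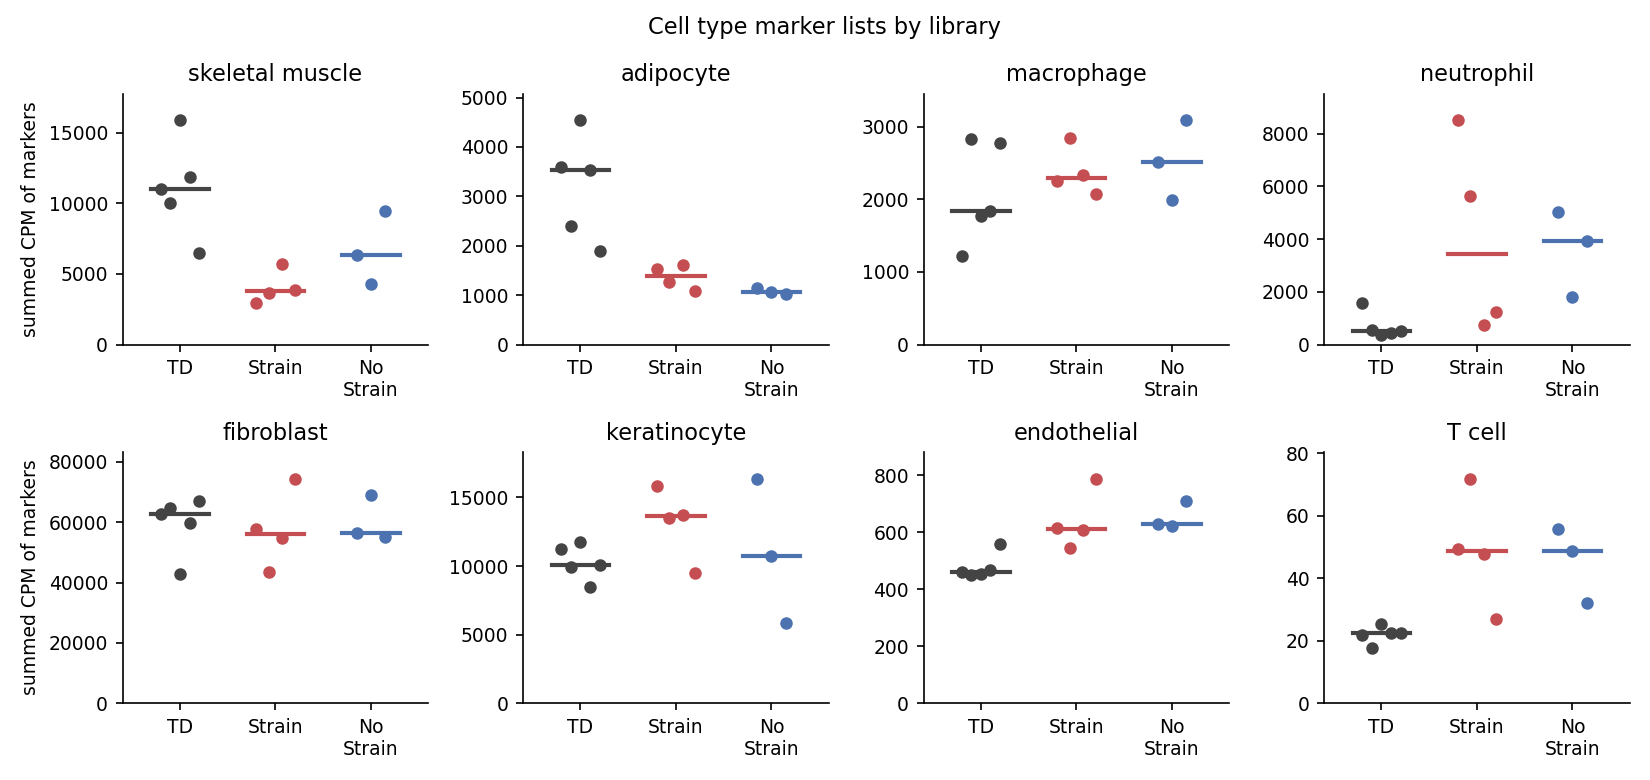
Summed CPM of the 8 marker lists in each library, on linear axes from 0, with a line at the group median. Adipocyte sums separate TD (1894 to 4538) from all patch libraries (1021 to 1622), No Strain neutrophil sums (1810 to 5024) lie above those of TD (369 to 1571), and fibroblast sums overlap.

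Within title letters, Igfbp5 was lower in patch wounds in each stratum: the log2 difference of Strain from TD was -0.97 among L libraries (3 against 1) and -1.39 among R libraries (1 against 4), and that of No Strain was -1.26 and -1.25. For Irs1 these values were -0.91 and -0.53, and -1.21 and -0.95. Igfbp2 gave -2.32 and -1.09 for Strain, and -1.43 and -1.51 for No Strain. Igf2 gave -0.92 and -0.58 for Strain. With the letter as a covariate, 0 of 10 members passed in either pairwise comparison with TD, with Igfbp5 at edgeR adjusted p = 0.111 and 0.0583 and Igfbp2 at 0.0615 and 0.145. Each stratum holds a group with 1 library, so these values have no test of their own.

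Libraries differed within groups as well. Strain 2 was the lowest of the 12 libraries for 6 of the 10 members (Insr, Igf1, Igf2, Igfbp2, Igfbp3 and Igfbp4), and No Strain 3 was the lowest for Irs1 and Igfbp5 and the highest for Igf2 and Igf1r. No Strain 3 was also the lowest of its group for Igfbp2, at 14.4 CPM. Variation within groups was small for Insr (coefficient of variation 3.53% to 6.78%) and Igf1r (6.82% to 11.1%), and for Irs1 it was 10.6% in TD, 30.7% in Strain and 48.1% in No Strain.

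Genes whose pattern over the 12 libraries was most like that of a called member were listed by the root mean square difference of centred log2 CPM, among 12416 genes at 5 CPM or more. For Igfbp5 the nearest was Irs1, itself a member, at 0.29 log2 units, followed by Osr2 at 0.29, which averaged 31.4 CPM in TD, 14.3 in Strain and 9.55 in No Strain. The spread of Igfbp5 itself about its mean was 0.77. For Irs1 the nearest were Cldn10 (0.19) and Nkd1 (0.22), the latter at 12.9, 6.34 and 6.43 CPM. For Igf2 they were Sync (0.19) and Reep1 (0.24), the latter at 11.5, 7.49 and 12.3 CPM, with its lowest group mean in Strain, as for Igf2. For Igfbp2 they were 2310050C09Rik (0.44) and Ache (0.47), both less close, against a spread of 1.16 for Igfbp2 itself.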

How the data were processed

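Poly(A) RNA of 12 wounds was sequenced, and 1 file of raw counts per gene was deposited for each library. Per the submitters' processing notes, bcl2fastq 2.17, FastQC, cutadapt, STAR, featureCounts, DESeq2 and the build GRCm38 were used. The release of the gene annotation, the strand setting and the handling of multi-matching reads are not given in the sources used here. Symbols, exon lengths and overlaps came from GENCODE M21, in which 54165 of 54232 identifiers matched.

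Genes were kept by filterByExpr (minimum count 10, minimum total 15), scaled by TMM and fitted with all 12 libraries in 1 robust edgeR 4.0.16 quasi-likelihood model (R 4.3.3). Benjamini-Hochberg adjustment ran over 18618 genes, with a threshold of 0.05. Standard errors are the log2 fold change over the root of F. CPM use TMM-scaled totals, and log2 CPM add a prior count of 2. The fit was tested on simulated data. Precision is limited by 3 to 5 libraries a group, and floors of 3 counts cover counting error only. Alternatives were other scalings and filters, DESeq2 1.42.0, limma 3.58.1 voom with quality weights, covariates, fits of the 2 groups alone and each library left out in turn. Named genes were all 10 members, in each comparison up to 6 higher and 6 lower pathway genes with the smallest p among those passing (the 2 smallest where none passed), and the 2 nearest genes in pattern to each called member. Members, lists and the mean of both patches were chosen with earlier results of these data known.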

Additional observations from a re-analysis of the deposited data

Results flagged for a closer look

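Values of the named genes and marker lists were screened for a library lying apart within the 5 TD or the 4 Strain libraries. Of 68 values screened, 6 stood apart, where chance gives about 1 in 20 (3.4). All are in log2 CPM. Igfbp3 was the only member among them: TD 5 was lowest at 7.32, with the next TD library at 7.84. Without TD 5 the 4 remaining TD libraries lie above every patch library. In the pathway, Eif4ebp1 was highest in Strain 1, at 6.23 against 6.04 in the next, and Gys1 was highest in Strain 3, at 5.55 against 5.25. Summed neutrophil markers were highest among TD libraries in TD 1, at 10.62 against 9.12. Summed fibroblast markers were lowest in TD 3, at 15.38 against 15.86. Summed endothelial markers were highest in TD 5, at 9.13 against 8.87.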

How the results depend on the processing

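No paired analysis was possible because the labels give no replicate number shared between groups. Over 906 member values in 23 alternatives, 782 kept direction and side of the threshold, 75 lost a call, 15 gained one and 34 changed sign. None of the sign changes concerned a difference that had passed. What causes the changes was not tested.

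For Strain against TD 2349 genes and 3 members passed. Counts were 1527 and 1 without a filter on low counts, 798 and 0 with the title letter, 1 and 0 with the muscle list, 40 and 0 with the adipocyte list and 1305 and 1 with the macrophage list as a covariate, and DESeq2 called 6 members. For No Strain against TD 3305 genes and 2 members passed. No members passed without the filter (0), and counts were 2145 and 0 with the letter, 802 and 1 with muscle, 55 and 0 with adipocyte and 2030 and 1 with macrophage. For both patches, 4552 genes and 5 members became 3 members without the filter, 2589 and 3 with the letter, 59 and 0 with muscle, 75 and 0 with adipocyte and 3009 and 3 with macrophage. Between the patches, 33 genes passed in DESeq2 and 0 in the edgeR fits. Library totals alone gave 1257 higher and 2046 lower genes for No Strain (1741 and 1564 with TMM), and 1787 and 2668 for both patches (2300 and 2252).

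Leaving out each library in turn gave 882 to 2458 genes and 0 to 4 members for Strain against TD, 1505 to 3415 and 0 to 3 for No Strain, 3176 to 4570 and 3 to 5 for both patches, and 0 and 0 between the patches.

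Sign changes on the log2 scale were as follows. Over the fits that each left out a library, the lowest and highest values of Irs2 were -0.0045 and 0.2044 (Strain against TD), -0.0423 and 0.1766 (No Strain against TD) and -0.0123 and 0.1855 (both patches). For No Strain against TD, Igf1 ran from -0.3075 to 0.05 and Igf2 from -0.0955 to 0.2045. Between the patches the ranges were -0.0716 to 0.0291 for Insr, -0.1189 to 0.5542 for Irs1, -0.0793 to 0.1321 for Irs2, -0.2984 to 0.0517 for Igf1, -0.1579 to 0.1622 for Igfbp3, -0.4077 to 0.0911 for Igfbp4 and -0.1595 to 0.4517 for Igfbp5. Igf2 for No Strain against TD was also -0.0224 with library totals and -0.0072 with voom, and Igfbp3 0.1099 with the adipocyte list. Between the patches, Insr was 0.0176 with totals and 0.0509 with muscle, and Irs2 -0.3341 with adipocyte and -0.0084 with voom. Igfbp3 was -0.2236 with adipocyte and -0.0230 with macrophage, Igfbp4 0.2882 with adipocyte and Igfbp5 -0.1393 with muscle.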
